A study of Carica papaya with 12 samples.

Results

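The 137 genes described here had a higher level in ripe than in unripe fruit of the papaya variety ‘RB1’ and a lower level in ripe than in unripe fruit of the variety ‘1B’. They were chosen by their measured levels from the 75259 genes of an assembled fruit transcriptome. A level is the summed abundance of all isoforms of 1 gene in TPM, a length-normalised measure of a transcript's share of all transcripts in a library, scaled between libraries by the authors with TMM factors, so that levels of different genes are per unit of transcript length. The level was averaged over the libraries of each variety and stage, 1 was added and the log2 was taken, and a gene was kept when ripe minus unripe was above 1 in ‘RB1’ and below -1 in ‘1B’. Up to 200 genes were to be kept, and all 137 that passed were. The ripening changes are therefore what chose the genes. They are given as a description, and the counts of genes past the thresholds of a test in the same libraries are no independent evidence for them.

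Both varieties are commercial papaya cultivars. The study describes the red-fleshed ‘RB1’ as sweet with a floral aroma and the yellow-fleshed ‘1B’ as bitter with a musty aroma. Its discussion also cites a sensory analysis in which ‘1B’ had the more floral aroma. RNA of the fruit flesh was sequenced at an unripe and a ripe stage, with 3 fruits per variety and stage and 12 libraries in all. By the study's harvest index the unripe fruit was mature green, and the ripe fruit was partly coloured and short of fully ripe. Every fruit had been treated with a postharvest fungicide. Stage and variety are the labelled differences between the groups. The study's RNA quality report scored the RNA of unripe ‘1B’ fruit higher than that of every other group, ripe ‘1B’ included, and the part of this in the falls in ‘1B’ was not tested. Flesh samples hold all cell types of that tissue, so that fewer cells of a type and less RNA per cell cannot be told apart. The labelled tissue could not be checked against marker genes here, since names were at hand only for the 77 genes of the study's list of sugar and volatile transcripts. No assembled sequence was at hand, and the genes have no genome position here.

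Papaya is a climacteric fruit, in which ethylene made by the fruit itself drives ripening, with softening of the cell walls, a colour change of the flesh from carotenoids, and the release of aroma volatiles. Starch stores in papaya flesh are small, and sugars reach the fruit mainly as sucrose from the leaves. Softening depends on enzymes that cut or rebuild cell wall polysaccharides, and aldehydes from fatty acids and amino acids are precursors of many fruit volatiles.

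Total counts ran from 10949060 in ‘RB1’ ripe replicate 2 to 60099964 in ‘1B’ ripe replicate 2, so the 2 ‘RB1’ ripe libraries of the rule include the shallowest of the 12. ‘RB1’ ripe replicate 3 stands apart from the other libraries of its label. The study left it out as lying nearer to the unripe libraries, and the rule left it out too. It is given separately, and the counts that rest on ripe ‘RB1’ fruit are given without it and, as alternatives added after the data were seen, with it.

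The 137 genes took 1.12% and 1.07% of all scaled TPM in ‘RB1’ ripe replicates 1 and 2. They took 0.190% to 0.249% in the ‘RB1’ unripe libraries, 0.820% to 0.938% in the ‘1B’ unripe libraries and 0.381% to 0.390% in the ‘1B’ ripe libraries. Ripe ‘RB1’ and unripe ‘1B’ were thus the high groups, with no overlap with the low ones, while ‘RB1’ ripe replicate 3, at 0.130%, lay below every other library. The sums rest on few genes. The 4 with the highest mean in ripe ‘RB1’ made up 47.3% of the summed level there and 26.3% of that in unripe ‘1B’. Medians over the genes do not depend on them in this way: the median level was 15.7 and 14.8 in ‘RB1’ ripe replicates 1 and 2, 3.32 to 3.74 in unripe ‘RB1’, 12.1 to 12.7 in unripe ‘1B’ and 2.107 to 2.303 in ripe ‘1B’. In ‘RB1’ ripe replicate 3 it was 2.57.

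**Figure D1:**
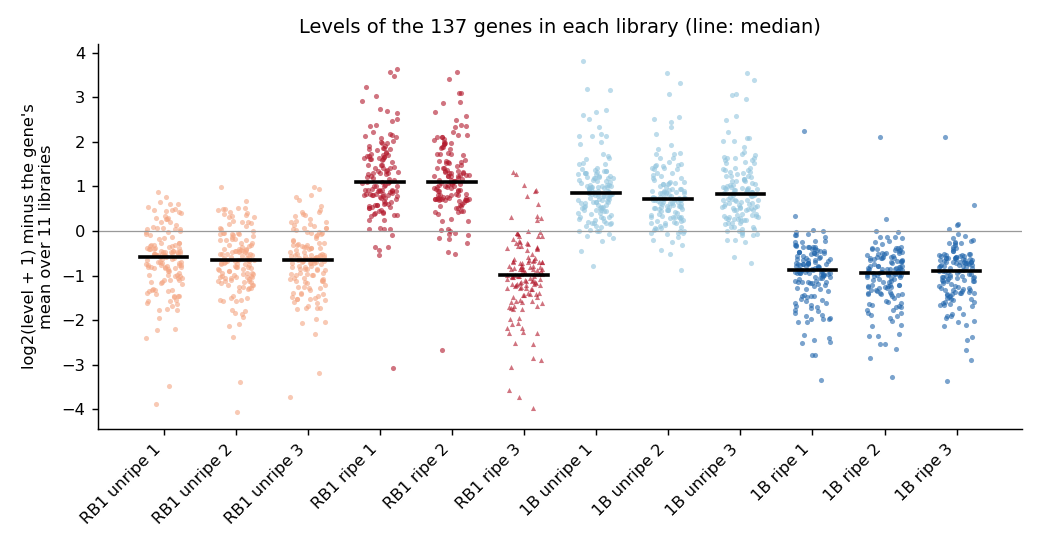
Level of each of the 137 genes in each library as log2(level + 1), from which the gene's mean over the 11 libraries of the rule was subtracted; points are genes, black lines are medians, and triangles mark ‘RB1’ ripe replicate 3. The points of ‘RB1’ ripe replicates 1 and 2 and of unripe ‘1B’ lie mostly above 0, and those of the other libraries, ‘RB1’ ripe replicate 3 included, mostly below it.

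The ripening change on the log2(level + 1) scale had a median of 1.52 in ‘RB1’, with a range from 1.00 to 5.05, and a median of -1.65 in ‘1B’, with a range from -4.874 to -1.001. The change was the larger one in ‘RB1’ for 70 genes and in ‘1B’ for 67. The smaller of both changes passed 1.5 in 44 genes, 2 in 16 and 3 in 5. In all 137 genes both ‘RB1’ ripe libraries lay above the 3 unripe ones, and in all 137 the 3 ‘1B’ ripe libraries lay below the 3 unripe ones. Among the 36566 genes past the low-count filter of edgeR these arrangements held for 22.7% and 13.1%. The rule used these libraries, so nothing is read from that difference. With replicate 3 among the ripe libraries, 29 genes had all ripe above all unripe ‘RB1’ libraries, and the mean change in ‘RB1’ stayed above 1 in 86. The shares of the filtered genes with replicate 3 kept were not computed.

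**Figure D2:**
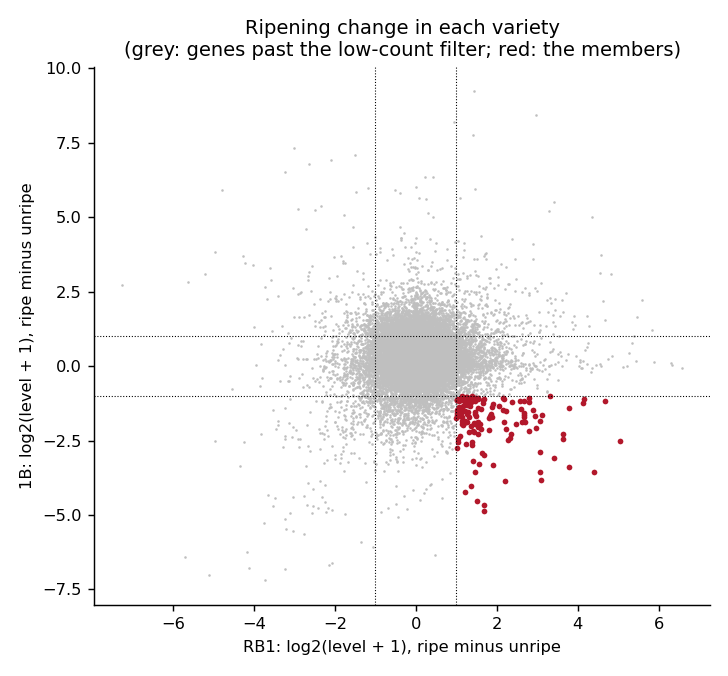
Ripening change of each gene, ripe minus unripe on the log2(level + 1) scale, in ‘RB1’ on the horizontal and in ‘1B’ on the vertical axis, without ‘RB1’ ripe replicate 3; grey points are the other genes past the low-count filter, red points the 137 genes, and dotted lines mark 1 and -1. The red points fill the lower right corner by the rule and reach 5.05 in ‘RB1’ and -4.87 in ‘1B’.

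Close to the limits, TRINITY_DN9414_c0_g1 was kept with changes of 1.00 in ‘RB1’ and -1.73 in ‘1B’, and TRINITY_DN4684_c0_g1 with 1.14 and -1.001. TRINITY_DN10031_c0_g1, with 0.99 and -1.28, and TRINITY_DN39077_c0_g1, with 0.99 and -1.01, were left out. Genes on either side of the limit thus differ by little, and 137 is a number set by the limit.

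When the counts were tested with edgeR's quasi-likelihood test with thresholds of 0.05 on the adjusted p and 1.5 on the absolute log2 fold change, 115 of the 137 genes were called higher in ripe than in unripe ‘RB1’, against 10.2% of the 26265 genes tested. With ‘RB1’ ripe replicate 3 kept among the ripe libraries, 3 of the 137 were called, and 93 genes in all (0.372%). With limma on log2(level + 1), without that library, 69 of the 137 were called, against 2.77% of all genes tested. In ‘1B’ all 137 were called lower in ripe fruit, against 10.2% of the 28998 genes tested. This was 83 when libraries were scaled by their size only. There 3.75% of all genes were called, and the median log2 fold change of all genes was 1.28. With limma it was 81, against 2.13% of all genes tested. The threshold of 1.5 then applies to log2(level + 1), the scale on which the median changes by group means were 1.52 in ‘RB1’ and -1.65 in ‘1B’. All 137 were also called for a larger ripening change in ‘RB1’ than in ‘1B’, against 13.0% of the 36566 genes tested. With all 12 libraries in the fit all 137 were called again, against 10.9% of 32870. The rule used the same contrasts, and these counts only describe how many of the chosen genes pass a count-based threshold as well.

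The opposite changes could start from different levels or end at them. By group means, 120 genes crossed over: they were lower in ‘RB1’ than in ‘1B’ in unripe fruit and higher in ‘RB1’ in ripe fruit. Another 12 were higher in ‘RB1’ at both stages, and 5 were higher in ‘1B’ at both. The median of ‘RB1’ minus ‘1B’ on the log2(level + 1) scale was -1.39 in unripe fruit and 1.96 in ripe fruit, with ranges from -7.52 to 1.56 and from -5.01 to 6.30. In unripe fruit 118 genes had all ‘RB1’ libraries below all ‘1B’ libraries, against 15.3% of the filtered genes, and in ripe fruit 132 had both ‘RB1’ libraries above all ‘1B’ libraries, against 19.0%. By edgeR's test with both thresholds, 89 were called lower in unripe ‘RB1’ than in unripe ‘1B’ (7.85% of all genes tested), and 124 were called higher in ripe ‘RB1’ than in ripe ‘1B’ (11.6%), with 1 called in the other direction. With ‘RB1’ ripe replicate 3 kept, 95 were called higher in ripe ‘RB1’ (6.55% of all genes tested). All ripe ‘RB1’ libraries then lay above all ripe ‘1B’ libraries in 57 genes, and the share over the filtered genes was not computed. By group means 120 still crossed over. These are the libraries of the rule, and the counts are descriptions.

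**Figure D3:**
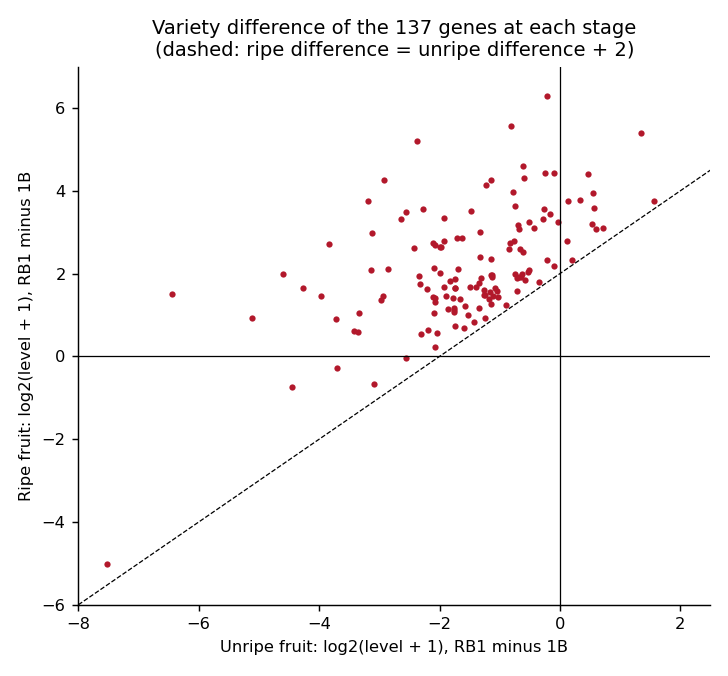
Difference between the varieties, ‘RB1’ minus ‘1B’ on the log2(level + 1) scale, in unripe fruit on the horizontal and in ripe fruit on the vertical axis, 1 point per gene, without ‘RB1’ ripe replicate 3. Every point lies above the dashed line because the rule asks for a rise above 1 and a fall below -1, and 120 points lie in the upper left part, where the varieties change places.

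The high groups lay within a factor of 2 of each other for 88 of the genes, counted on the level plus 1, which draws low levels together. The share over the filtered genes was not computed. Ripe ‘RB1’ minus unripe ‘1B’ had a median of 0.34 on the log2(level + 1) scale and a range from -6.49 to 3.93. Unripe ‘RB1’ minus ripe ‘1B’, the low groups, had a median of 0.27 and a range from -6.04 to 3.87. The highest group was ripe ‘RB1’ in 83 genes and unripe ‘1B’ in 54, and the lowest was ripe ‘1B’ in 86 and unripe ‘RB1’ in 51. In 113 genes every library of both high groups lay above every library of both low groups, against 2.44% of the filtered genes, a share that the rule again makes high. With replicate 3 kept, this held for 15 genes, and the share over the filtered genes was not computed. The highest group was then ripe ‘RB1’ in 59 and unripe ‘1B’ in 78, and 86 had the high groups within a factor of 2.

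The genes ranged widely in abundance. Group means ran from 1.52 to 1769 in ripe ‘RB1’, with a median of 15.4, and from 1.68 to 4718 in unripe ‘1B’, with a median of 12.7. In the low groups the medians were 3.43 in unripe ‘RB1’ and 2.21 in ripe ‘1B’. A level of 100 or more in a high group was reached by 18 genes, and 28 were under 10 in both. Replicates among the libraries of the rule were close: the median coefficient of variation over the genes was 6.32% in ripe ‘RB1’ (n = 2), 10.2% in unripe ‘RB1’, 11.1% in unripe ‘1B’ and 12.2% in ripe ‘1B’ (n = 3 each). ‘RB1’ ripe replicates 1 and 2 lay within a factor of 1.5 for 133 genes, counted on the level plus 1. The 6.32% leaves out ‘RB1’ ripe replicate 3, which was not close to them: its median level was 2.57, against 15.7 and 14.8.

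Of the 137 genes 3 have a name from the study's list, and 134 have none here and are given by their identifier in the assembly. The study chose that list on these samples. The first of the 3, TRINITY_DN5853_c0_g2, is granule-bound starch synthase 1, the enzyme that makes amylose, the unbranched part of starch. Its level was 1.096, 0.853 and 0.705 in the unripe ‘RB1’ libraries and 12.6 and 11.7 in ‘RB1’ ripe replicates 1 and 2. It was 6.60, 6.59 and 6.42 in unripe ‘1B’ and 2.551, 2.498 and 1.645 in ripe ‘1B’. No library of a high group overlapped a low one, and the order was ripe ‘RB1’, unripe ‘1B’, ripe ‘1B’ and unripe ‘RB1’, without overlap between any neighbours. The change was 2.80 in ‘RB1’ and -1.22 in ‘1B’.

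Most of this came from 1 of its 2 isoforms. Isoform i2 of TRINITY_DN5853_c0_g2 went from a mean of 0.299 ± 0.0553 (SD, n = 3) to 11.9 ± 0.641 (SD, n = 2) in ‘RB1’ and from 4.19 ± 0.120 to 0.563 ± 0.498 (SD, n = 3 each) in ‘1B’. Isoform i1 was at 0.586 ± 0.194 in unripe and 0.278 ± 0.0523 in ripe ‘RB1’, and at 2.35 ± 0.170 in unripe and 1.67 ± 0.130 in ripe ‘1B’. The sum in ripe ‘1B’ was thus mainly i1, and that in ripe ‘RB1’ mainly i2, which made up 97.7% of it. Salmon divides reads that match both isoforms between them, so the split is an estimate.

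TRINITY_DN1920_c0_g1 is aldehyde dehydrogenase family 2 member B7, a mitochondrial enzyme of a family that oxidises aldehydes to acids. It was at 4.33, 3.81 and 3.87 in unripe ‘RB1’ and at 84.7 and 89.5 in ‘RB1’ ripe replicates 1 and 2. In ‘1B’ it was at 9.56, 10.5 and 12.3 in unripe and at 4.80, 4.47 and 2.68 in ripe fruit. Ripe ‘RB1’ was far above all other groups, and the low groups overlapped, so that neither can be placed below the other. The change of 4.14 in ‘RB1’ was among the highest of the 137, while that of -1.24 in ‘1B’ was near the limit.

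Trinity placed 16 isoforms under this gene, of which 13 had a level. Isoform i16 led in both high groups, with 64.7% of the sum in ripe ‘RB1’ and 70.9% in unripe ‘1B’. In ‘RB1’ 10 isoforms had changes above 1, but in ‘1B’ only i6 had a change below -1. For i16 the means were 2.64 ± 0.481 (SD, n = 3) and 56.3 ± 2.06 (SD, n = 2) in ‘RB1’, and 7.64 ± 0.964 and 3.60 ± 1.27 (SD, n = 3 each) in ‘1B’, a change of -0.91 that alone would not have met the rule.

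TRINITY_DN2388_c0_g1 is endoglucanase 25-like. In Arabidopsis, endoglucanase 25 is a membrane-bound cellulase needed for making cellulose. Its level was 8.78, 8.67 and 8.41 in unripe ‘RB1’, 23.6 and 23.2 in ‘RB1’ ripe replicates 1 and 2, 8.44, 8.32 and 6.96 in unripe ‘1B’, and 2.66, 2.64 and 2.24 in ripe ‘1B’. Unripe fruit of both varieties lay close together, with overlapping ranges, and the varieties moved apart from there by nearly equal steps of 1.35 and -1.34. It is thus 1 of the 12 genes with a higher mean in ‘RB1’ at both stages, and it does not cross over. Isoform i2 gave 69.3% of the sum in ripe ‘RB1’, isoform i1 the rest, and both had a higher mean in ripe than unripe ‘RB1’ and a lower one in ripe than unripe ‘1B’.

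**Figure D4:**
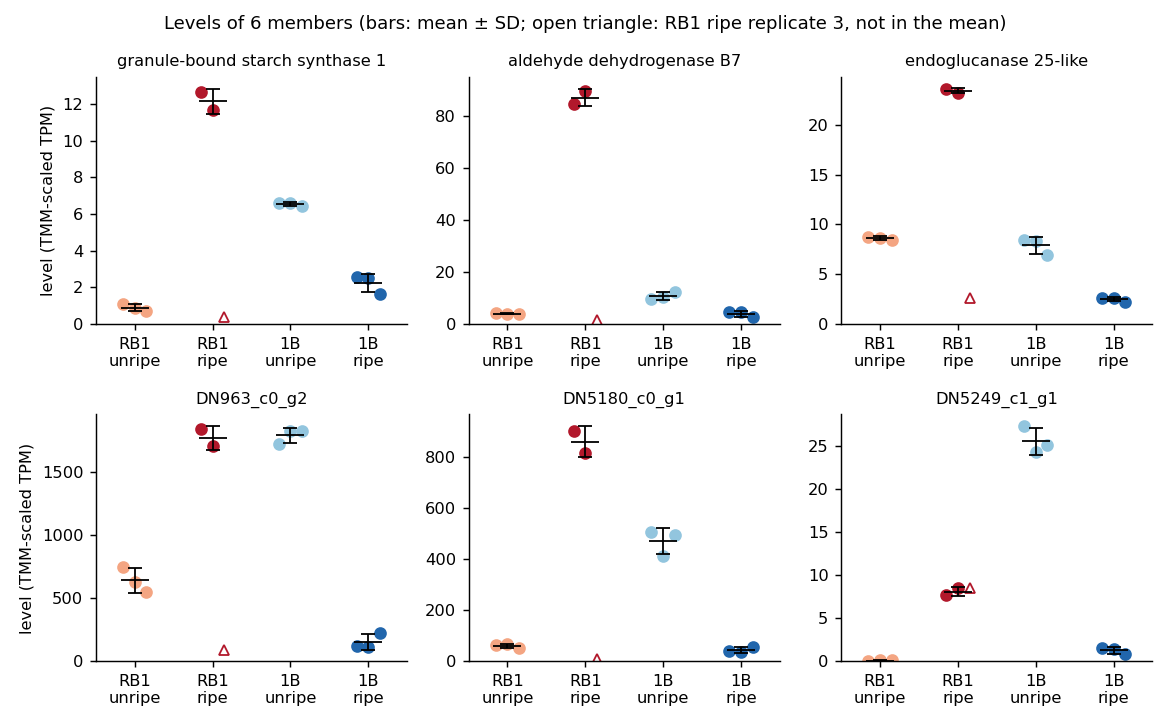
Levels in TMM-scaled TPM of 6 of the genes by variety and stage, on linear axes that start at 0; filled points are libraries, bars the mean ± SD (n = 3, and n = 2 in ripe ‘RB1’), and the open triangle is ‘RB1’ ripe replicate 3, which is not in the mean. The triangle lies at 0.391 for granule-bound starch synthase 1, at 1.502 for the aldehyde dehydrogenase and at 2.60 for endoglucanase 25-like, below the unripe ‘RB1’ points, but at 8.53 beside the ripe points for TRINITY_DN5249_c1_g1.

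The rest of the study's list gives the setting of these 3 genes, with edgeR's test and both thresholds. Of all genes tested, 10.2% were called higher and 9.05% lower in ripe than unripe ‘RB1’, and 15.7% higher and 10.2% lower in ripe than unripe ‘1B’. Of the 26 genes listed under starch and sucrose metabolism, 7 were called higher and 4 lower in ripe than unripe ‘RB1’, and 6 higher and 5 lower in ripe than unripe ‘1B’. The granule-bound starch synthase and the endoglucanase belong to it. Of the 24 genes of glycolysis and gluconeogenesis, to which the aldehyde dehydrogenase belongs, 2 were called higher and 4 lower in ‘RB1’, and 5 higher and 5 lower in ‘1B’. In the whole list 12 genes were called higher and 13 lower in ripe ‘RB1’, and with replicate 3 kept 1 was called higher, none of the 3 genes above, and 2 lower. The median log2 fold change of the 77 genes was -0.06 in ‘RB1’ and 0.02 in ‘1B’. None of the 137 genes was among the 12 listed for fatty acid biosynthesis or the 11 for the terpenoid backbone. With 137 of all 75259 genes chosen, lists this short would hold few or none in any case, and no absence is read from this. By the limits of the rule, 6 of the 77 fell in ‘RB1’ and rose in ‘1B’, the mirror image, and 6 rose in both, against 265 and 367 of the 75259 genes. Only 36566 of the 75259 passed the low-count filter, and the study chose its list on these samples. The sets are thus unlike, and nothing is read from the difference.

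Without replicate 3, 4 genes of the list were called higher in ripe ‘RB1’ and lower in ripe ‘1B’. These were the 3 above and isoamylase 3, TRINITY_DN5599_c0_g1, which removes branches from starch during its breakdown and is not among the 137. The share of all genes tested that were called in both directions was not computed. The rule had chosen 3 of the 4 for these directions, and nothing is read from the count. Isoamylase 3 was at 0.607, 0.265 and 0.586 in unripe ‘RB1’, 1.78 and 2.18 in ‘RB1’ ripe replicates 1 and 2 and 0.521 in replicate 3, 3.08, 2.77 and 3.01 in unripe ‘1B’, and 1.82, 1.43 and 1.46 in ripe ‘1B’. Its log2 fold change was 1.65 (SE 0.22, adjusted p = 5.66e-07) in ‘RB1’ and -1.70 (SE 0.11, adjusted p = 3.5e-09) in ‘1B’ by edgeR's quasi-likelihood test, and with replicate 3 kept it was not called in ‘RB1’. On the log2(level + 1) scale its changes were 1.00 and -0.62, and the second missed the rule.

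Among the 134 genes with no name, the largest changes in ‘RB1’ with a mean of at least 5 in both high groups were those of TRINITY_DN6835_c0_g1 and TRINITY_DN3534_c0_g1. TRINITY_DN6835_c0_g1 was at 0.534, 0.265 and 0.414 in unripe ‘RB1’ and at 35.4 and 33.8 in ‘RB1’ ripe replicates 1 and 2, a change of 4.66. In ‘1B’ it was at 6.88, 5.21 and 5.27 in unripe and 2.04, 2.16 and 1.94 in ripe fruit, a change of -1.16. All 4 groups were apart, with unripe ‘RB1’ the lowest. Isoform i7 made up 99.4% of the sum in ripe ‘RB1’ and 68.7% in unripe ‘1B’.

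TRINITY_DN3534_c0_g1 had the largest smaller change of all 137, with 4.39 in ‘RB1’ and -3.56 in ‘1B’. Its level was 0.846, 0.943 and 1.24 in unripe ‘RB1’ and 42.3 and 40.0 in ‘RB1’ ripe replicates 1 and 2. Unripe ‘1B’ was higher still, at 186, 170 and 168, and ripe ‘1B’ was at 14.5, 14.3 and 12.9. The fall in ‘1B’ thus ended above the level at which ‘RB1’ began, and the difference in unripe fruit, -6.45, was far larger than that of 1.4996 in ripe fruit.

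The largest falls in ‘1B’ under the same minimum were those of TRINITY_DN48565_c0_g1 and TRINITY_DN3484_c1_g1. TRINITY_DN48565_c0_g1 was at 43.9, 40.9 and 58.5 in unripe and 0.332, 0.382 and 1.27 in ripe ‘1B’, a change of -4.87. In ‘RB1’ it was at 2.39, 2.64 and 2.24 in unripe fruit and at 9.29 and 10.7 in ripe replicates 1 and 2, a change of 1.68. Both varieties thus changed in opposite directions from unripe levels that were far apart, and the high group was unripe ‘1B’.

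TRINITY_DN3484_c1_g1 was at 51.3, 49.6 and 67.6 in unripe ‘RB1’ and at 200 and 165 in ‘RB1’ ripe replicates 1 and 2. It was at 120, 78.4 and 97.9 in unripe and at 2.87, 3.03 and 2.79 in ripe ‘1B’. The change was 1.68 in ‘RB1’ and -4.68 in ‘1B’, and ripe ‘1B’ was the only group at a low level, since unripe fruit of both varieties already stood at 49.6 or more. In ripe fruit the varieties differed by 5.56 on the log2(level + 1) scale.

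The most abundant of the genes in ripe ‘RB1’ was TRINITY_DN963_c0_g2. It was at 748, 624 and 551 in unripe ‘RB1’, 1836 and 1701 in ‘RB1’ ripe replicates 1 and 2, 1721, 1826 and 1823 in unripe ‘1B’, and 119, 116 and 224 in ripe ‘1B’. The high groups overlapped, and the low groups did not. Isoform i4 led in both, with 60.03% of the sum in ripe ‘RB1’ and 97.96% in unripe ‘1B’. TRINITY_DN5180_c0_g1, the third in abundance there, was at 62.8, 67.8 and 53.8 in unripe ‘RB1’ and 904 and 818 in ‘RB1’ ripe replicates 1 and 2. It was at 508, 415 and 495 in unripe ‘1B’ and at 40.0, 35.9 and 57.1 in ripe ‘1B’. Its changes of 3.79 and -3.38 were large in both varieties, and the low groups overlapped.

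The following genes lie outside the rule by which genes were named and were picked after their values were seen. With TRINITY_DN3534_c0_g1, TRINITY_DN5180_c0_g1 and TRINITY_DN5249_c1_g1, the genes with both changes past 3 were TRINITY_DN13155_c0_g1, at 3.10 and -3.83, and TRINITY_DN6154_c0_g1, at 3.41 and -3.09. TRINITY_DN6154_c0_g1 had similar levels in unripe fruit of both varieties, 17.2, 16.9 and 22.8 in ‘RB1’ and 19.0, 21.5 and 25.7 in ‘1B’. From there it stood at 229 and 195 in ‘RB1’ ripe replicates 1 and 2 and at 1.68, 1.96 and 1.46 in ripe ‘1B’.

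The 5 genes that were higher in ‘1B’ at both stages were TRINITY_DN958_c0_g1, TRINITY_DN5570_c0_g1, TRINITY_DN1409_c0_g2, TRINITY_DN337_c0_g2 and TRINITY_DN2622_c3_g1. The last of these had the highest level of any of the 137 in unripe ‘1B’, at 5283, 4437 and 4433, and it was still at 1803, 1619 and 1643 in ripe ‘1B’. In ‘RB1’ it stood at 24.6, 21.8 and 27.8 in unripe fruit and at 43.9 and 58.8 in ripe replicates 1 and 2. The variety difference of this gene was thus many times its ripening change of 1.02 in ‘RB1’ or -1.48 in ‘1B’.

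At the other end, 4 genes had 3 counts or fewer summed over the ripe ‘1B’ libraries. TRINITY_DN646_c0_g2 had no count there, and it had the largest change in ‘RB1’ of all 137, 5.05. It was at 0.262, 0.073 and 0 in unripe ‘RB1’, at 34.7 and 36.9 in ‘RB1’ ripe replicates 1 and 2, and at 5.40, 3.77 and 5.14 in unripe ‘1B’. The others were TRINITY_DN2933_c0_g1, TRINITY_DN7218_c0_g1 and TRINITY_DN6355_c0_g1. TRINITY_DN6355_c0_g1 was at 0.922, 0.641 and 0.716 in unripe ‘RB1’ and at 24.6 and 22.2 in ‘RB1’ ripe replicates 1 and 2, against 1.72, 1.66 and 1.66 in unripe ‘1B’. For all 4 the ripe ‘1B’ libraries together hold no more than the 3 counts that a true level of 0 cannot be told from at this depth.

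‘RB1’ ripe replicate 3 did not enter the rule, so its difference from the unripe ‘RB1’ libraries can be tested, although those unripe libraries did enter the rule. In 92 of the 137 genes the library lay below every unripe ‘RB1’ library, against 31.6% of the filtered genes, in 16 within the unripe range, and in 29 above it, against 27.6%. Of those 29, 27 were still below both other ripe libraries, and 2 reached the lower of them.

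With a single library, the spread was taken from all 12 libraries in edgeR's quasi-likelihood fit, which assumes that this fruit varies like the other groups. With both thresholds, 2 of the 137 were called higher in ‘RB1’ ripe replicate 3 than in unripe ‘RB1’ (1.03% of the 32870 genes tested) and 20 were called lower (2.18%). With an adjusted p under 0.05 alone, 14 were higher (5.64%), 50 were lower (6.61%) and 73 did not pass. The median log2 fold change of the 137 genes was -0.53, and that of all genes tested was -0.01. The genes that replicates 1 and 2 place higher in ripe ‘RB1’ were thus called lower, not higher, in the third ripe fruit in most cases where a call was made.

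**Figure D5:**
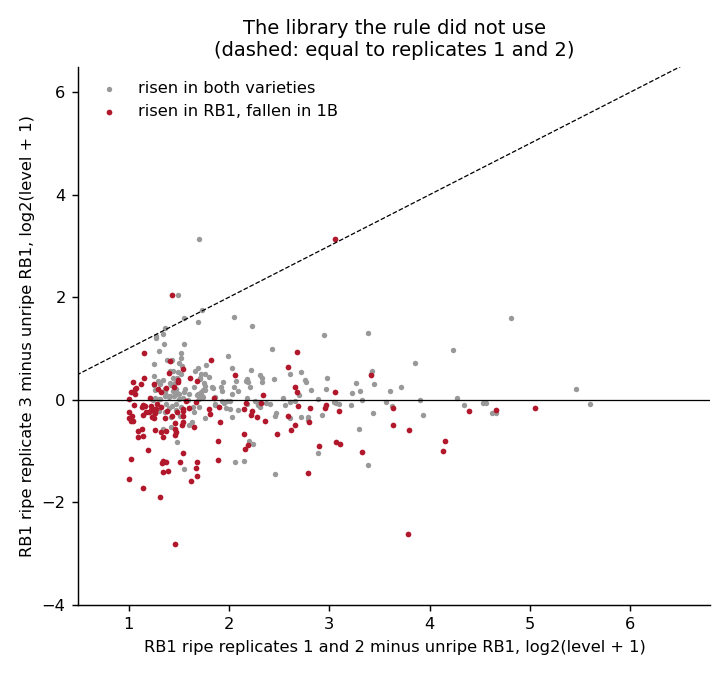
Difference from the mean of unripe ‘RB1’ on the log2(level + 1) scale for ‘RB1’ ripe replicates 1 and 2 on the horizontal and ‘RB1’ ripe replicate 3 on the vertical axis; red points are the 137 genes and grey points 200 genes that rose in both varieties. On the dashed line replicate 3 would equal replicates 1 and 2, and 92 of the 137 genes lie below all unripe ‘RB1’ libraries instead.

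The 2 genes called higher were TRINITY_DN5249_c1_g1 and TRINITY_DN7218_c0_g1, the second named after its values were seen. TRINITY_DN5249_c1_g1 was at 0.024, 0.106 and 0.139 in unripe ‘RB1’ and at 7.73, 8.46 and 8.53 in all 3 ripe ‘RB1’ libraries, replicate 3 being the highest. The log2 fold change of replicate 3 against unripe ‘RB1’ was 6.32 (SE 0.26, adjusted p = 6.49e-15, edgeR). In ‘1B’ it was at 27.25, 24.25 and 25.04 in unripe and 1.56, 1.43 and 0.845 in ripe fruit. TRINITY_DN7218_c0_g1 was at 0, 0 and 0.075 in unripe ‘RB1’ and at 1.498, 2.035 and 3.252 in ripe ‘RB1’, with a log2 fold change of 6.65 (SE 0.40, adjusted p = 5.88e-12) for replicate 3 that depends on very few counts in unripe fruit. These are the 2 genes in which the third fruit reached the level of the other ripe fruits.

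TRINITY_DN4259_c0_g1 came next among the genes named by rule. It was at 2.109, 2.968 and 3.152 in unripe ‘RB1’, 25.4 and 20.5 in ripe replicates 1 and 2 and 6.15 in replicate 3, between both groups. The log2 fold change of replicate 3 was 1.13 (SE 0.23, adjusted p = 0.00104, edgeR), under the fold threshold. In ‘1B’ its level was 16.4, 12.9 and 15.8 in unripe and 5.30, 4.61 and 3.37 in ripe fruit.

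The lowest in replicate 3 relative to unripe ‘RB1’ were the abundant TRINITY_DN963_c0_g2 and TRINITY_DN5180_c0_g1. TRINITY_DN963_c0_g2 was at 90.7 in replicate 3, below the lowest unripe library at 551, with a log2 fold change of -2.77 (SE 0.31, adjusted p = 2.34e-07, edgeR). TRINITY_DN5180_c0_g1 was at 9.12, below the lowest unripe library at 53.8, with a log2 fold change of -2.71 (SE 0.24, adjusted p = 7.33e-09, edgeR). Both were below ripe ‘1B’ too, where their lowest libraries were at 116 and 35.9.

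The 3 genes with a name were low in replicate 3 as well. Endoglucanase 25-like, at 2.60, had a log2 fold change of -1.69 (SE 0.17, adjusted p = 4.36e-08, edgeR) and was the only 1 of the 3 past both thresholds. The aldehyde dehydrogenase, at 1.502, had -1.36 (SE 0.22, adjusted p = 8.06e-05, edgeR), and granule-bound starch synthase 1, at 0.391, had -0.98 (SE 0.24, adjusted p = 0.00616, edgeR). TRINITY_DN48565_c0_g1, at 0.476, was past both thresholds, with -2.31 (SE 0.42, adjusted p = 0.000316, edgeR). The remaining 3 genes named by rule did not pass: TRINITY_DN6835_c0_g1 at 0.219, TRINITY_DN3534_c0_g1 at 0.731 and TRINITY_DN3484_c1_g1 at 72.9, with adjusted p = 0.117, 0.266 and 0.208 by edgeR.

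How far replicate 3 lay along the way from unripe to ripe can be set beside other genes. With 0 for the unripe ‘RB1’ mean and 1 for the mean of ripe replicates 1 and 2, the median place over the 137 genes was -0.152, with quartiles of -0.397 and -0.0109. It was 0.0621 for the 200 genes with the largest rises in both varieties, -0.0594 for the 200 that fell most in ‘RB1’ and rose in ‘1B’, and 0.0253 for all 2839 filtered genes with a change above 1 or below -1 in ‘RB1’. The library lay near the unripe level by all of these medians, and on the far side of it both for the 137 genes and for those of the mirror image. Among the 200 genes that rose in both, 16 were called higher in replicate 3 and 5 lower, and among the 200 of the mirror image 6 higher and 7 lower. The difference between these lists was not tested. Why the third fruit differs was not tested either.

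The isoforms were not used by the rule, which summed them. More than 1 isoform was assembled for 84 of the 137 genes (61.3%), against 48.0% of the filtered genes. In 71 of these 84 (84.5%) the same isoform had the highest mean in ripe ‘RB1’ and in unripe ‘1B’, and in 72 with replicate 3 kept. The share was 65.5% over all filtered genes with several isoforms, 74.2% among the genes that rose in both varieties and 60.8% among those of the mirror image. The median level also differed, 7.98 for the 137 genes and 0.490 for all filtered genes, and its part in the share was not tested. Ripe and unripe ‘RB1’ also shared their lead isoform in 71 of the 84 (84.5%), against 69.9% of the filtered genes with several isoforms. For ripe and unripe ‘1B’ it was 67 (79.8%), against 71.7%. A shared lead isoform is thus not particular to the high groups. In most of the genes with several isoforms, the levels in ripe ‘RB1’ and in unripe ‘1B’ were led by the same assembled transcript.

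Reads that match related transcripts can be divided between genes of the assembly. Of the 137 genes 6 shared an assembly cluster with another of them, in 3 pairs, among them TRINITY_DN337_c0_g1 and TRINITY_DN337_c0_g2, and their levels are uncertain to that extent. TRINITY_DN337_c0_g1 was at 4.51, 4.91 and 5.49 in unripe ‘RB1’ and 13.9 and 12.5 in ripe replicates 1 and 2, and TRINITY_DN337_c0_g2 at 5.75, 5.40 and 5.98 and at 13.4 and 12.4. In ‘1B’ they were less alike, at 8.54, 7.48 and 8.30 against 39.0, 36.4 and 39.5 in unripe fruit and at 1.52, 1.53 and 1.37 against 14.4, 12.9 and 12.6 in ripe fruit. Both pairs of levels moved in the same directions, as the rule requires of each gene.

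With the scale and limits of the rule, a rise in ‘RB1’ with a fall in ‘1B’ was the rarest of the 4 combinations of direction. The other combinations were not recounted with other scalings or pseudocounts, which change the number of 137, so the order is given for the rule alone. By the same limits 137 genes rose in ‘RB1’ and fell in ‘1B’, 265 fell in ‘RB1’ and rose in ‘1B’, 367 rose in both and 236 fell in both. In each variety alone 1740 genes rose and 1215 fell in ‘RB1’, and 3510 rose and 1255 fell in ‘1B’. The 137 genes are thus 7.87% of those that rose in ‘RB1’ and 10.9% of those that fell in ‘1B’. Of all 75259 genes 2.31% rose in ‘RB1’ and 1.67% fell in ‘1B’. Only 36566 of these passed the low-count filter, and genes with levels near 0 cannot pass the limits. Nothing is therefore read from the difference between these shares. Of the 1740 genes that rose in ‘RB1’, more rose in ‘1B’ as well (367) than fell there (137). The same held over all genes, of which 3510 rose and 1255 fell in ‘1B’, so this is not particular to the 1740.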

How the data were processed

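RNA-Seq of papaya flesh, 12 libraries of 4 groups with 3 fruits each, was used. The authors trimmed reads (bbduk, Trimmomatic 0.40, FastQC 0.11.9), built a joint transcriptome of ‘RB1’ and ‘1B’ with Trinity without a genome, and deposited the expected counts of Salmon per transcript, which are not normalized. The signal values, TPM scaled by TMM factors between libraries, were also deposited by the authors. Transcripts (180368) were summed here over the 75259 Trinity genes. The levels that chose the genes are these sums of the signal.

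Summed expected counts were rounded and tested with the quasi-likelihood test of edgeR 4.0.16 under R 4.3.3 after filterByExpr and TMM scaling, with the Benjamini-Hochberg adjustment over every gene tested, the study's thresholds, and each comparison fitted on its own libraries, ‘RB1’ ripe replicate 3 left out. That library was tested against unripe ‘RB1’ in a fit of all 12. The SE of a log2 fold change is its ratio to the root of F. The steps were tested on simulated data. Total counts of 10949060 to 60099964 set the precision, and 3 counts were taken as the floor of detection.

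The genes, lists and tests were chosen with earlier results of these data known. The text names each of the 137 genes that is in the study's list, and, with a mean of at least 5 in ripe ‘RB1’ and in unripe ‘1B’, the 2 with the largest change in ‘RB1’, the 2 with the largest fall in ‘1B’, and the 2 highest and 2 lowest in ‘RB1’ ripe replicate 3 relative to unripe ‘RB1’. Names are from the study's list (118 transcripts, 77 genes). Alternatives were replicate 3 kept, CPM, other pseudocounts, filters, medians, limits, DESeq2 1.42.0, RLE factors, library size only, a median log2 fold change of 0, no fold threshold, limma 3.58.1 on the log2 of the level plus 1, a fit over all groups, a replicate block, and each library left out.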

Additional observations from a re-analysis of the deposited data

Results flagged for a closer look

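In 137 of the 137 genes the ripening change differed between the varieties by the interaction of variety and stage in edgeR's quasi-likelihood test. This follows from the rule, which asked for a rise in ‘RB1’ and a fall in ‘1B’ in the same libraries, and is no independent result.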

How the results depend on the processing

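The number of genes that met the rule was 137, and 137 again, the same genes, among genes past the low-count filter alone. It was 558 with a pseudocount of 0.1, 52 with a pseudocount of 5, 354 with CPM in place of TPM (133 of them among the 137), 44 with a limit of 1.5, and 87 with ‘RB1’ ripe replicate 3 kept (86 of them among the 137). Leaving out each library in turn gave 129 to 145, of which 127 to 137 were among the 137.

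Of the 137 genes, 115 were called higher in ripe ‘RB1’. This was 3 with ‘RB1’ ripe replicate 3 kept (0.372% of all genes tested) and 69 with limma (2.77%). With each unripe ‘RB1’ library left out it was 104 to 109 (9.97% to 10.4%). Counts from fits with only 1 ripe ‘RB1’ library left are not given. The 137 called lower in ripe ‘1B’ were 83 by library size only (3.75% of all genes tested), where the median log2 fold change of all genes was 1.28 in place of 0.22 under TMM. With limma they were 81 (2.13% of all genes tested). They were 137 with each library left out. The 89 called lower in unripe ‘RB1’ than unripe ‘1B’ became 89 to 91 with each library left out (7.59% to 8.36% of all genes tested). The 124 called higher in ripe ‘RB1’ than ripe ‘1B’ became 119 to 123 with each ripe ‘1B’ library left out (10.9%). The 137 for the interaction stayed at 137 with each library outside ripe ‘RB1’ left out (12.6% to 13.4%). The 2 genes called higher in replicate 3 were 14 with no fold threshold and 2 to 3 with each unripe ‘RB1’ library left out. All other alternatives for these counts stayed within 1.5 times. Apart from what the construction shows, the cause was not tested.

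Replicate numbers do not pair the fruits by the labels, and same-numbered libraries did not deviate together, with correlations from -0.0295 to 0.0101 over 10 pairs. With the replicate block, 115 genes were called in ‘RB1’ (9.31% of all genes tested) and 137 in ‘1B’ (10.2%). In unripe fruit 88 were called (7.79%), in ripe fruit 125 (10.8%), and for the interaction 137 (12.6%).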
